A study of Homo sapiens with 6 samples.

Results

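The collagen chain genes are the 44 human genes whose symbol reads COL, a number, A and a number, from COL1A1 to COL28A1. They were picked out by that symbol from a table of 20036 genes. The 6 RNA-seq libraries were all of PANC-1, an established cell line grown from a human pancreatic carcinoma. In 3 libraries the cells had been given a null virus (control), and in 3 they carried a lentivirus that knocks down SHMT2, the mitochondrial serine hydroxymethyltransferase that makes glycine from serine (knockdown). The labels name no other treatment, time point or clone. Nor do they tell if replicates came from different cultures, and a p-value here is set against the variation among these libraries, part or all of which may be technical.

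Collagens are secreted proteins in which 3 chains wind around each other, with glycine recurring through the wound part of every chain. Fibrillar collagens form the cable-like fibrils of the matrix, and type IV collagen forms the sheet of basement membranes under epithelia. FACIT collagens sit on the surface of fibrils, and transmembrane collagens span the plasma membrane of the cell that makes them. A trimer needs chains that fit together, so the level of a chain is read here beside the levels of its partners.

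SHMT2 itself was counted 2113, 2284 and 2417 times in the control libraries and 139, 56 and 101 times in the knockdown libraries (given throughout in the order of replicates 1, 2 and 3), which matches the labels. Library totals lay between 15405884 and 19075734 counts. In each group 1 library differed from the rest. Control replicate 1 had a chi-square per gene of 24.6 and 29.4 against the others and knockdown replicate 2 one of 70.7 and 72.3, while the remaining pairs had 2.04 and 2.40. Mitochondrially encoded genes took 10.4% of the counts in knockdown replicate 2 and 4.72% to 6.86% in the other 5 libraries. Cells that make collagen in a tumour are mainly fibroblasts, and 3 of 9 fibroblast markers other than collagens (DCN, FAP and PDPN) had 0 counts in every library. The summed level of those 9 markers was 4.08 to 4.72 CPM (counts scaled by TMM to a common library size) in control and 2.59 to 4.09 CPM in knockdown libraries, and THY1, the highest of them over the 6 libraries, fell (2.49 ± 0.330 to 1.38 ± 0.454 CPM, adjusted p = 0.0289). RGS5, the other marker with enough counts to test, had a higher mean in the knockdown (0.915 ± 0.369 to 1.53 ± 0.391 CPM). It was not called (adjusted p = 0.12). Of 6 endothelial markers only KDR had enough counts to test, and the summed level was 0.506 to 0.692 CPM in control and 5.91 to 7.30 CPM in knockdown libraries, nearly all of the latter KDR (6.20 ± 0.591 CPM), while TEK had 1 count in each group. The 6 immune markers summed to 0.802 to 1.84 and 2.26 to 3.11 CPM, mainly CD14, with 0 counts for FCGR3A in every library. Of 6 epithelial markers, 3 rose and 1 fell, beside 26.7% and 25.1% of all tested genes. EPCAM fell, from 18.1 ± 0.527 to 6.95 ± 0.863 CPM (adjusted p = 0.000172), and KRT8, KRT19 and CDH1 rose. RGS5, KDR and, of the epithelial markers, KRT19 and CDH1 passed the filter on low counts through the knockdown libraries alone. KRT8, a simple-epithelium keratin, was the highest at 947 ± 101 and 1410.3 ± 90.8 CPM (mean ± SD, n = 3 per group), KRT7 was low at 1.09 ± 0.195 and 1.48 ± 0.576 CPM, and KRT19, named after its values were seen, had 7 control counts against 3941 in the knockdown. The part of other cell types in the collagen values was not tested, and in bulk RNA fewer cells of a type and less RNA per cell cannot be told apart.

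Of the 44 chains, 24 passed the filter on low counts. The edgeR quasi-likelihood test, with p-values adjusted over all 12292 tested genes, called 5 of the 24 higher and 13 lower in the knockdown, and 6 were not called. Among all tested genes 51.8% were called, 26.7% higher and 25.1% lower, so the share of chains called lower (54.2%) lay above that background and the share called higher (20.8%) below it. A change of at least 2-fold was called in 5 higher and 5 lower chains, where 15.6% of all tested genes passed that rule (9.81% higher and 5.78% lower). The 6 values of a chain separated without overlap in 18 of the 24, where 61.4% of all tested genes did so. The knockdown was the higher group in 5 of these chains and in 31.3% of all tested genes, and the lower in 13 chains and 30.2%. The median log2 fold change of the 24 chains was -0.61, beside a median of 0.003 over all tested genes. It is a value for the chains that passed the filter and not for the family: with no filter, which let 41 chains in, it was -0.058, and by DESeq2, with 36, it was -0.056. COL5A3, COL4A1, COL4A2 and COL22A1 passed the filter in every library of 1 group alone, which favours a difference, so their calls add nothing to the counts as support. Of the 20 that passed it in both groups, 3 rose, 11 fell and 6 were not called. All 18 calls were kept in each of 17 alternative settings, and the rule of at least 2-fold kept 10.

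**Figure D1:**
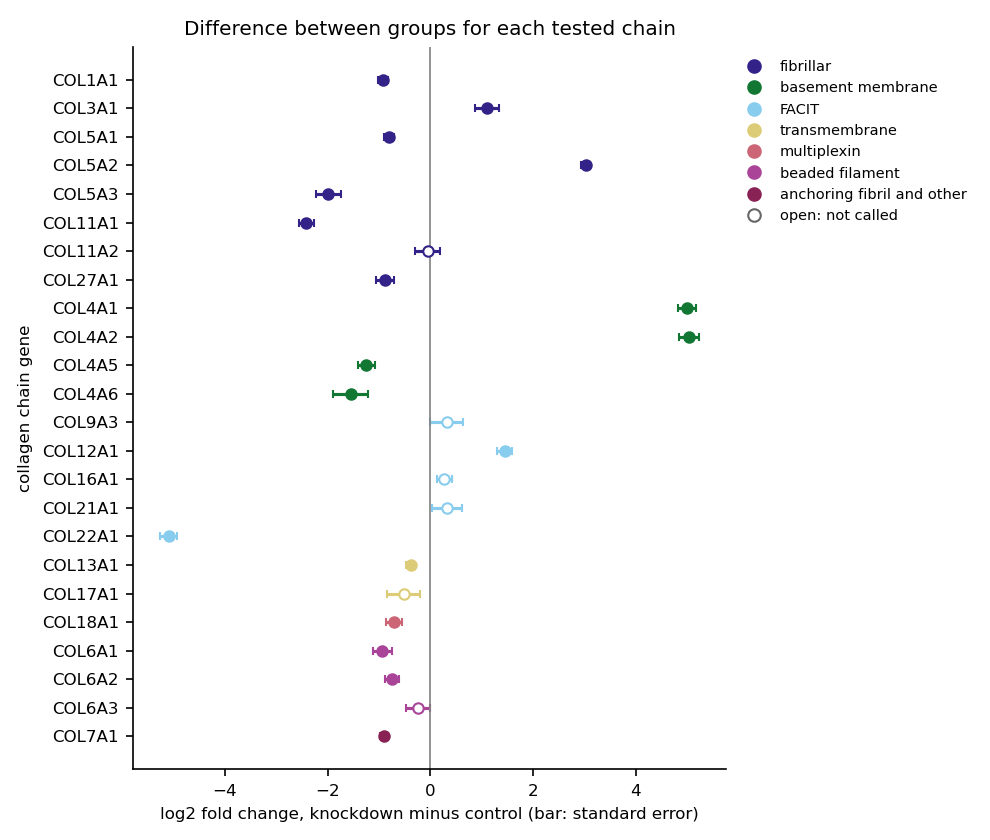
Log2 fold change (x axis, knockdown minus control) of each of the 24 tested collagen chain genes (y axis), coloured by class, with standard errors as bars and open symbols for chains that were not called. COL4A1, COL4A2 and COL5A2 lie far to the right and COL22A1 far to the left, while most other called chains lie between -2.41 and -0.38.

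Set per length, as FPKM (fragments per kilobase of gene, scaled to library size), the order of the chains changed. In control libraries COL18A1 was the most abundant at 33.3 ± 0.783 FPKM (SD, n = 3), followed by COL11A1 at 16.1 ± 3.42 and COL7A1 at 14.03 ± 0.709. COL5A2, COL1A1 and COL5A1 came next at 9.43 ± 0.502, 9.04 ± 0.765 and 9.04 ± 0.786 FPKM, and these 3 neighbours in the order did not differ beyond their spread. In knockdown libraries COL5A2 came first at 81.3 ± 3.35 FPKM, ahead of COL18A1 at 21.8 ± 5.31 and COL7A1 at 7.95 ± 0.690. COL5A1 at 5.46 ± 0.268, COL1A1 at 5.05 ± 0.110 and COL11A1 at 3.19 ± 0.0678 FPKM followed. The same 6 chains thus led in both groups, and together they made up 84.1% and 89.6% of all collagen FPKM.

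**Figure D2:**
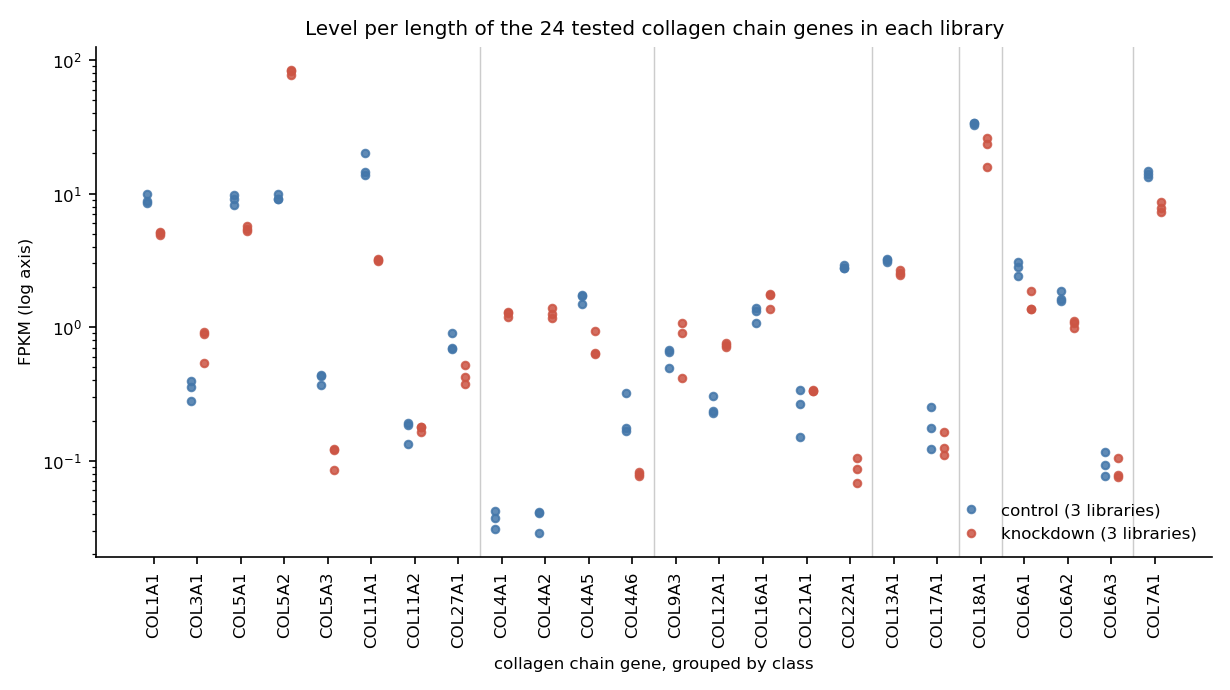
FPKM on a log axis of the 24 tested chains in each of the 6 libraries, with control libraries as blue and knockdown libraries as red points and chains grouped by class. COL5A2 moves from 9.43 to 81.3 FPKM in the group means, and COL4A1 and COL4A2 move from the bottom of the plot to above 1 FPKM.

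Counts from all 44 chains together rose somewhat: they made up 0.0985% ± 0.0048 of all counts in control and 0.116% ± 0.0075 in knockdown libraries (SD, n = 3), and their summed level was 1014 ± 43.6 and 1122 ± 25.8 CPM. Those are ratios of 1.17 and 1.11. Per length the sum rose further, from 108 ± 4.98 to 139 ± 9.31 FPKM, a ratio of 1.29. These sums were not tested. The make-up of the summed FPKM changed as well. COL5A2 alone took 8.73% ± 0.189 of the summed FPKM in control libraries and 58.5% ± 1.86 in knockdown libraries, with ranges of 8.51% to 8.85% and 56.6% to 60.3%. Without COL5A2, the other 43 chains summed to 943 ± 40.6 CPM in control and 544 ± 29.97 CPM in knockdown libraries, a ratio of 0.577. COL18A1 went from 28.6% to 32.4% of the collagen FPKM in control libraries to 12.3% to 17.9% in knockdown libraries. COL11A1 went from 14.8% ± 2.45 to 2.30% ± 0.173. Shares of 1 total cannot move independently, so where another chain took a smaller share, that share carries the rise of COL5A2 as well as its own change. COL4A1, COL4A2, COL3A1 and COL12A1 took larger shares, of 0.908%, 0.924%, 0.556% and 0.531% in the knockdown against 0.0340%, 0.0339%, 0.317% and 0.236% in control libraries.

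**Figure D3:**
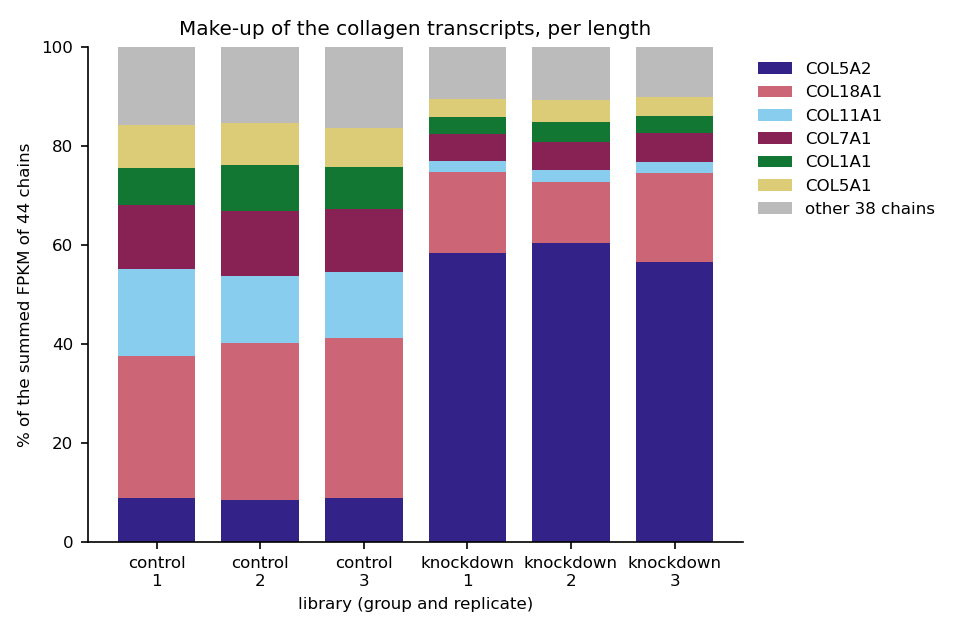
Share of the summed FPKM of 44 chains (y axis, percent) taken by 6 named chains and by the other 38 in each library (x axis). COL5A2 fills 8.51% to 8.85% of the control bars and 56.6% to 60.3% of the knockdown bars.

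Among fibrillar chains, 2 of the 8 tested rose, 5 fell and COL11A2 was not called, with a median log2 fold change of -0.84. Over all tested genes 26.7% were called higher and 25.1% lower. The share of this class that rose (25%) was near the background and the share that fell (62.5%) was above it. COL5A3, among those that fell, passed the filter in every library of the control group alone, which favours a call. COL5A2, the alpha 2 chain of type V collagen, which helps start fibrils, lies on chromosome 2 from 189031898 to 189225312 on the minus strand (ENSG00000204262). It stood at 74.97, 68.7 and 69.5 CPM in control and at 583, 580.4 and 571 CPM in knockdown libraries. The groups were far apart, and the spread within each was small. The rise was 8.14-fold in the means, a log2 fold change of 3.02 (SE 0.08, adjusted p = 2.54e-06). COL3A1, the chain of type III collagen and the next gene on the chromosome, rose from 2.46, 2.74 and 1.96 CPM to 5.71, 3.73 and 5.85 CPM, a log2 fold change of 1.10 (SE 0.24, adjusted p = 0.00622), with knockdown replicate 2 the lowest of its group.

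The other type V chains went the opposite way. COL5A1, the alpha 1 chain that COL5A2 joins in the common type V trimer, stood at 112, 104 and 95.2 CPM in control and 55.1, 65.5 and 57.6 CPM in knockdown libraries. That was a fall to 57.2% of the control mean (log2 fold change -0.81, SE 0.11, adjusted p = 0.0007). COL5A3, which replaces a chain in a rarer type V trimer, fell from 3.02, 3.01 and 2.59 CPM to 0.547, 0.855 and 0.777 CPM (log2 fold change -1.99, SE 0.24, adjusted p = 0.00048). Per length, COL5A2 and COL5A1 were level in control libraries, with FPKM ratios of COL5A2 to COL5A1 of 1.02, 1.01 and 1.11. That level rests on the table's gene lengths of 7319 and 11160 bases, as the control means were 71.0 and 104 CPM. In knockdown libraries the ratios were 16.1, 13.5 and 15.1. COL5A1 and COL5A3 also parted from each other, and the ratio of COL5A1 to COL5A3 was 22.0 ± 0.806 in control and 51.0 ± 8.91 in knockdown libraries (SD, n = 3). Single-chain tests were made and the ratios themselves were not tested.

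COL11A1, the alpha 1 chain of type XI collagen, which can also enter type V fibrils, fell the furthest of the fibrillar chains. It stood at 186, 136 and 129 CPM in control and 28.1, 29.7 and 26.9 CPM in knockdown libraries, a log2 fold change of -2.41 (SE 0.15, adjusted p = 3.26e-05). Control replicate 1 was the highest, and the other control libraries were still far above every knockdown library. Its type XI partner COL11A2 stayed low at 1.29 ± 0.239 and 1.24 ± 0.102 CPM, with overlapping groups and no call (adjusted p = 0.865). The sign of that difference changed in several settings.

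COL1A1, the alpha 1 chain of type I collagen, the main collagen of bone, skin and tendon, stood at 78.1, 91.9 and 81.4 CPM in control and 42.1, 47.4 and 43.4 CPM in knockdown libraries. It fell to 52.9% of the control mean (log2 fold change -0.92, SE 0.10, adjusted p = 0.000311). Its usual partner COL1A2 had 0 counts in all 6 libraries. A count of 0 allows up to 3 counts per library, which is 0.0145 to 0.0180 FPKM and far below the 9.04 and 5.05 FPKM of COL1A1. Counting error alone is covered by that limit. COL27A1, a fibrillar chain known from cartilage, fell from 13.0, 9.82 and 10.2 CPM to 4.97, 6.11 and 6.89 CPM (log2 fold change -0.88, SE 0.18, adjusted p = 0.00487).

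**Figure D4:**
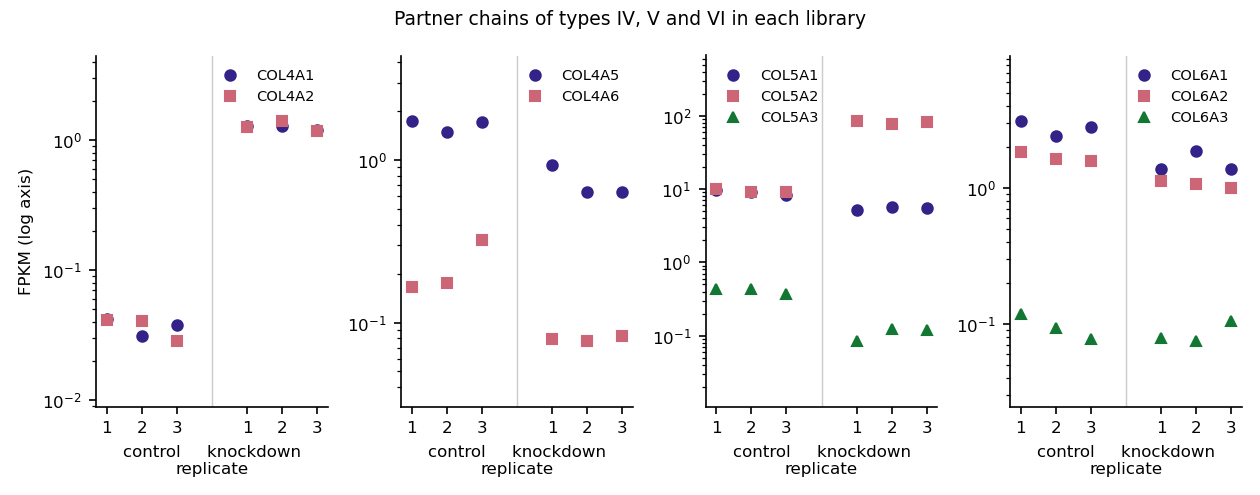
FPKM on a log axis of chains of types IV, V and VI that share trimers, by library, with control replicates on the left and knockdown replicates on the right of each panel. COL4A1 and COL4A2 lie close together at both levels, COL4A5 and COL4A6 fall together, and COL5A2 separates from COL5A1.

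The 6 type IV genes lie in 3 head-to-head pairs, each pair being read in opposite directions from a short shared stretch. All 4 tested members, which form 2 of the pairs, were called, beside 51.8% of all tested genes, and within each pair the direction was the same. COL4A1 and COL4A2 passed the filter through the knockdown libraries alone, where they are high, so the count of calls in this class supports nothing by itself. COL4A1 (ENSG00000187498, chromosome 13, 110148963 to 110307157, minus strand) and COL4A2 (ENSG00000134871, chromosome 13, 110305812 to 110513209, plus strand) build the form of type IV collagen found in nearly all basement membranes. COL4A1 had 10, 7 and 9 counts in control and 362, 316 and 321 in knockdown libraries. COL4A2 had 13, 12 and 9 counts in control and 462, 452 and 415 in knockdown libraries. The control counts are few, so the size of each fold rests on 26 and 34 counts in the control group. COL4A1 rose by a log2 fold change of 4.99 (SE 0.18, adjusted p = 4.44e-06) and COL4A2 by 5.03 (SE 0.20, adjusted p = 5.48e-06). Per length the chains were level before and after, with FPKM ratios of COL4A2 to COL4A1 of 1.02 ± 0.273 in control and 1.01 ± 0.0644 in knockdown libraries (SD, n = 3).

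COL4A5 (ENSG00000188153, chromosome X, 108439838 to 108697545, plus strand) and COL4A6 (ENSG00000197565, chromosome X, 108155607 to 108439497, minus strand) share another type IV trimer, found in only some basement membranes. COL4A5 stood at 21.0, 18.2 and 21.1 CPM in control and 10.5, 7.76 and 7.15 CPM in knockdown libraries (log2 fold change -1.25, SE 0.17, adjusted p = 0.000755). COL4A6 stood at 1.57, 1.67 and 3.10 CPM in control and 0.696, 0.733 and 0.725 CPM in knockdown libraries (log2 fold change -1.55, SE 0.34, adjusted p = 0.00668). The order of the type IV chains was therefore turned over. The ratio of COL4A1 to COL4A5 in FPKM was 0.0208 to 0.0242 in control and 1.39 to 2.01 in knockdown libraries. The third pair, COL4A3 and COL4A4, whose products are best known from the kidney filter, had 13 and 18 counts in the 3 control libraries together and 20 and 23 in the knockdown and did not pass the filter.

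The stretches between the RefSeq starts of the pairs that moved are shown because each lies between genes that changed together. Starts are those of RefSeq on GRCh38.p14, whose promoter table holds 32 of the 44 chains. Capitals mark matches, on either strand, to the CCAAT box CCAAT, the GC box GGGCGG, the TATA box TATAAA and the motif CCCTNCCCC, known as a CTC box from type IV collagen promoters. The starts of COL4A1 and COL4A2 are separated by 126 bases, of which 28 are printed, from the CCAAT box to the CTC box (chr13:110307179-110307206, plus strand). GENCODE 29 places the starts elsewhere: in it, first exons of COL4A1 and COL4A2 cover nearly all of the 126 bases, and the printed bases lie inside the COL4A1 exon. Those of COL4A5 and COL4A6 are separated by 379 bases, of which the 250 next to COL4A5 are printed (chrX:108439588-108439837, plus strand).
COL4A1-COL4A2: CCAATttgttggcgctgccCCCTCCCCC
COL4A5-COL4A6: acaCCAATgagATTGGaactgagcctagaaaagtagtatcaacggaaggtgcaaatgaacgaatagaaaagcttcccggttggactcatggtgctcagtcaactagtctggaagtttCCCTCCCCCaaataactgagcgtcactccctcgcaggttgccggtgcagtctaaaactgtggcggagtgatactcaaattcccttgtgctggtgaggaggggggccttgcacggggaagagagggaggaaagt

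The 126 bases between the RefSeq starts of COL4A1 and COL4A2 held 1 CCAAT box, 1 CTC box and 1 GC box and no TATA box, and 80.2% of them were G or C. Among 35116 RefSeq promoters in windows of the same length, 21.1% held a CCAAT box, 6.4% a CTC box, 34.6% a GC box and 5.9% a TATA box. The 250 bases beside COL4A5 held 2 CCAAT boxes, 1 CTC box, no GC box and no TATA box, with 51.2% G or C, where 32.0%, 10.6%, 42.6% and 10.7% of all promoters had a match. No motif overlapped another. Both stretches thus carry CCAAT and CTC letters, although one pair rose and the other fell, and a match is a description of letters and not of a bound site.

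No gene next to the pairs on the chromosome changed as far as COL4A1, COL4A2 or COL5A2. The other members of the pairs stood out less. COL3A1 (1.10) changed by less in size than its neighbour CALCRL, and COL4A5 (-1.25) and COL4A6 (-1.55) lay nearer to their neighbour VSIG1. Of the 3 nearest tested genes on each side of COL4A1 and COL4A2, LIG4 rose (log2 fold change 1.11), IRS2 and CARS2 fell (-0.78 and -0.45), and ABHD13, RAB20 and NAXD were not called (0.09, 0.47 and -0.07). Beside COL3A1 and COL5A2, TFPI and GULP1 rose (0.91 and 0.82), CALCRL fell (-1.63), and WDR75, ASNSD1 and ANKAR were not called (0.12, 0.16 and 0.36). Beside COL4A5 and COL4A6, VSIG1 and ATG4A fell (-1.09 and -0.37), TMEM164 rose (0.31), and PSMD10, NXT2 and ACSL4 were not called (-0.04, 0.07 and -0.32). These neighbours were chosen by position after the collagen values were seen.

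**Figure D5:**
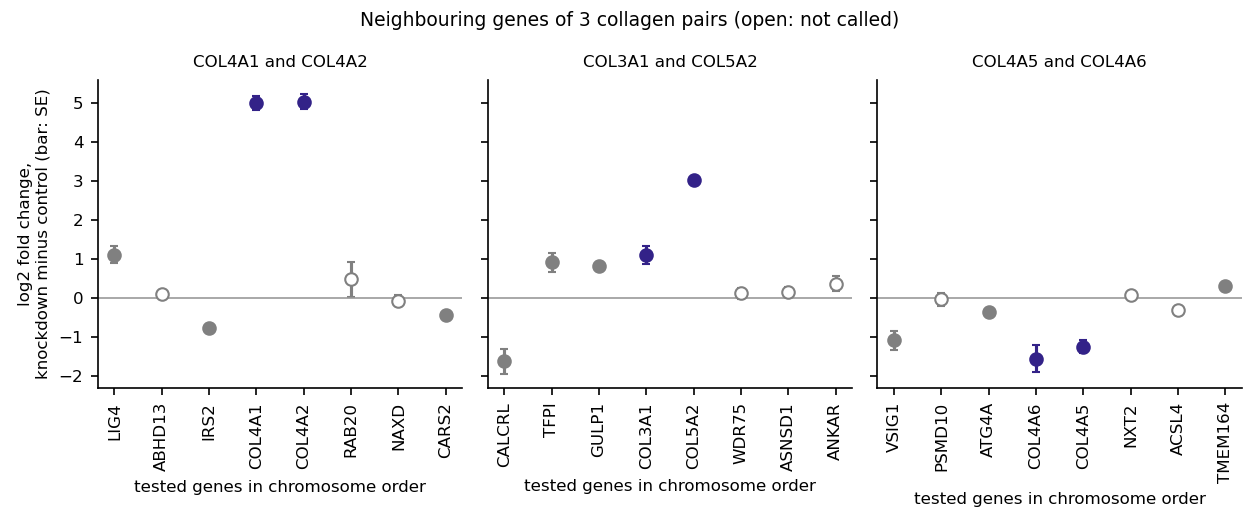
Log2 fold change (y axis, knockdown minus control, with standard errors) of 3 collagen pairs, in dark blue, and of the 3 nearest tested genes on each side, in grey, in chromosome order (x axis), with open symbols for genes that were not called. No neighbour reaches the change of COL4A1, COL4A2 or COL5A2, the largest rise among the neighbours being LIG4 at 1.11. CALCRL, at -1.63, changes further than COL3A1.

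FACIT chains gave 1 call in each direction among 5 tested, with a median of 0.32. That is 20% each way, beside 26.7% higher and 25.1% lower over all tested genes. The chain called lower, COL22A1, passed the filter in every library of the control group alone, which favours a call. COL22A1 (ENSG00000169436, chromosome 8, 138588235 to 138914041, minus strand), known from the junctions of muscle with tendon, had 376, 336 and 354 counts in control and 13, 9 and 15 counts in knockdown libraries. It kept 2.88% of its control mean, with a log2 fold change of -5.09 (SE 0.16, adjusted p = 2.72e-06). Per length it was the eighth most abundant chain in control libraries, at 2.82 ± 0.104 FPKM, and stood at 0.0864 ± 0.0179 FPKM in the knockdown. COL12A1, which binds to type I fibrils, rose from 5.92, 4.54 and 4.43 CPM to 13.7, 13.7 and 13.3 CPM (log2 fold change 1.44, SE 0.15, adjusted p = 0.000244). COL16A1, another fibril-surface chain, overlapped between the groups at 10.2, 13.4 and 12.6 CPM in control and 15.2, 13.0 and 15.4 CPM in knockdown libraries and was not called (adjusted p = 0.148). COL21A1 was not called either (1.79 ± 0.669 and 2.25 ± 0.117 CPM, adjusted p = 0.375). COL9A3, a chain of cartilage type IX collagen, stood at 2.46, 3.34 and 3.29 CPM in control and 4.17, 2.08 and 4.97 CPM in knockdown libraries and was not called (adjusted p = 0.43). Without knockdown replicate 2, which lay below every control library, it was called higher (log2 fold change 0.58, adjusted p = 0.043), and FACIT chains called higher were then 2.

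Of the transmembrane chains, COL13A1, which is made at cell adhesions and at the nerve-muscle junction, fell by a small amount and with little spread. It stood at 38.3, 37.7 and 36.4 CPM in control and 29.3, 29.02 and 28.02 CPM in knockdown libraries, a fall to 76.8% of the control mean (log2 fold change -0.38, SE 0.09, adjusted p = 0.00764). COL17A1, a hemidesmosome component of epithelia, was at 1.32 ± 0.463 and 0.905 ± 0.164 CPM, with overlapping groups and no call (adjusted p = 0.213). Over the 6 libraries together, COL23A1 had 1 count and COL25A1 had 0. The class therefore rests on 2 chains, of which 1 was called, beside 51.8% of all tested genes. The difference between classes was not tested for any class.

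The remaining called chains all fell. COL18A1, a basement membrane multiplexin from which endostatin is cut, stood at 281, 296 and 294 CPM in control and 188, 137 and 209 CPM in knockdown libraries (log2 fold change -0.71, SE 0.15, adjusted p = 0.00593), with knockdown replicate 2, the library of the high mitochondrial share, the lowest. Of its exon bases 16.43% lie over exons of SLC19A1, the folate carrier on the opposite strand, which itself fell (log2 fold change -1.47), and without a stated strand setting reads there cannot be told apart. COL7A1, which forms the anchoring fibrils that fix epithelium to the tissue below, went from 167, 162 and 153 CPM to 82.9, 83.3 and 91.7 CPM (log2 fold change -0.90, SE 0.09, adjusted p = 0.000177). Both remained among the 3 most abundant chains.

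Type VI collagen forms beaded filaments from 3 different chains. COL6A1 fell from 17.6, 13.8 and 16.3 CPM to 7.20, 10.6 and 7.20 CPM (log2 fold change -0.93, SE 0.19, adjusted p = 0.00461). COL6A2 fell from 10.1, 8.95 and 8.73 CPM to 5.66, 5.86 and 5.02 CPM (log2 fold change -0.75, SE 0.14, adjusted p = 0.00317). COL6A3, the long chain that the trimer also needs, was at 2.12 ± 0.438 and 1.79 ± 0.292 CPM with overlapping groups and no call (adjusted p = 0.42). Per length COL6A3 was scarce beside its partners, at 0.0958 ± 0.0204 and 0.0856 ± 0.0160 FPKM against 1.69 ± 0.147 and 1.06 ± 0.0646 FPKM for COL6A2.

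The 20 chains that did not pass the filter had at most 25 counts in any library. COL1A2, COL6A5 and COL25A1 had none. COL24A1, a fibrillar chain, had 6, 2 and 3 counts in control and 25, 9 and 19 in knockdown libraries, and was called higher with no filter (log2 fold change 1.96, adjusted p = 0.0143) and by DESeq2 (1.98, adjusted p = 0.0136). It was also called higher when control replicate 1 or 3 or knockdown replicate 2 was left out. In those fits it passed the filter through the knockdown libraries alone, which favours a call. COL15A1, COL8A2 and COL26A1 had 8, 9 and 6 control counts and 27, 27 and 22 knockdown counts in 3 libraries each, and no setting called them. COL10A1 had 11 and 5. The rest were COL2A1, COL4A3, COL4A4, COL6A6, COL8A1, COL9A1, COL9A2, COL14A1, COL19A1, COL20A1, COL23A1 and COL28A1, which had overlapping groups and 0 to 23 counts per group.

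Of 19 tested genes that hydroxylate, glycosylate and fold collagen chains 6 rose and 10 fell, beside a background of 51.8% called, with a median of -0.24. FKBP10, a collagen-folding prolyl isomerase, fell from 196 ± 7.91 to 98.0 ± 9.40 CPM (SD, n = 3, adjusted p = 0.000189). The lysyl hydroxylases did not all go the same way. PLOD1 fell from 325 ± 5.50 to 204 ± 8.64 CPM (adjusted p = 0.000415) and PLOD3 from 74.1 ± 2.63 to 49.8 ± 2.22 CPM (adjusted p = 0.00118). PLOD2, which acts on the end regions where cross-links form, rose from 463 ± 93.6 to 931 ± 63.6 CPM (adjusted p = 0.0011). The galactosyltransferase COLGALT1 fell from 211 ± 20.2 to 127 ± 8.35 CPM (adjusted p = 0.000921). The count of higher members was 3 without control replicate 3 and 3 without knockdown replicate 3.

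Of 14 genes of secretion and procollagen processing, 5 rose and 6 fell, with a median of -0.20, where 26.7% of all tested genes rose and 25.1% fell. CREB3L1, TLL1, ADAMTS2, ADAMTS3 and ADAMTS14 passed the filter in 1 group alone, which favours a call. Of the proteinases and enhancers in it that cut the ends of procollagen, BMP1, PCOLCE2, ADAMTS2, ADAMTS3 and ADAMTS14 fell, TLL1 and TLL2 rose and PCOLCE was not called. PCOLCE2, an enhancer of C-terminal cutting, fell from 35.3 ± 2.91 to 9.95 ± 1.51 CPM (adjusted p = 6.6e-05) and the C-proteinase BMP1 from 25.4 ± 1.85 to 9.81 ± 2.07 CPM (adjusted p = 0.000445). ADAMTS3, an N-proteinase, fell from 8.99 ± 2.48 to 0.676 ± 0.422 CPM (adjusted p = 0.000281). CREB3L1, a membrane-bound transcription factor that drives collagen secretion genes, rose from 0.513 ± 0.223 to 5.89 ± 1.99 CPM (adjusted p = 0.00031), from 24 counts in the control group.

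Of 6 cross-linking enzymes, 2 rose and 2 fell, with a median of 0.14, and for so few genes these shares are near the background of 26.7% and 25.1%. LOX rose from 2.24 ± 0.841 to 5.31 ± 0.209 CPM (SD, n = 3, adjusted p = 0.00464) and the transglutaminase TGM2 from 48.4 ± 0.857 to 63.0 ± 1.77 CPM (adjusted p = 0.00576). LOXL2, the most abundant of them, fell from 102 ± 6.19 to 78.3 ± 1.58 CPM (adjusted p = 0.00727) and LOXL3 from 2.999 ± 0.372 to 1.23 ± 0.236 CPM (adjusted p = 0.00247).

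Of 9 tested collagen receptors, 3 rose and 5 fell, with a median of -0.70, beside 26.7% and 25.1% of all tested genes. MRC2, an endocytic receptor that takes up collagen fragments, fell from 145 ± 3.62 to 51.8 ± 2.01 CPM (adjusted p = 1.63e-05) and ADGRG1, an adhesion receptor for type III collagen, from 66.9 ± 4.40 to 22.8 ± 4.26 CPM (adjusted p = 0.000172). The receptor kinase DDR1 fell from 181 ± 3.12 to 87.3 ± 12.0 CPM (adjusted p = 0.000305) and the integrin chain ITGA10 from 9.89 ± 0.627 to 4.80 ± 0.406 CPM (adjusted p = 0.00072). The receptors that rose were ITGA1, ITGB1 and DDR2, and without control replicate 2 or 3 only 1 of them, DDR2, was called. ITGB1 (adjusted p = 0.0444) was also not called when knockdown replicate 1, 2 or 3 was left out.

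Of 14 fibril-associated matrix proteins, 4 had enough counts to test. SPARC, a collagen-binding glycoprotein, rose from 0.215 ± 0.0771 to 1.07 ± 0.108 CPM (SD, n = 3, adjusted p = 0.00154), from 10 counts in the control group. It passed the filter through the knockdown libraries alone, which favours a call, and it was the only call in its list. THBS1 at 48.3 ± 0.528 and 53.5 ± 2.07 CPM and FN1 at 1.82 ± 0.304 and 1.73 ± 0.475 CPM were not called (adjusted p = 0.166 and 0.842). Without knockdown replicate 3, TNXB was called lower, but it passed the filter through the control libraries alone, which favours such a call. THBS1 was called higher when the library that differed was left out of each group.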

How the data were processed

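The authors deposited whole-number read counts and FPKM values per gene for 6 PANC-1 libraries, per the file headers. Their FPKM values follow from the deposited counts, the table's gene lengths and the library totals. Per the labels' protocols, TRIzol was used for extraction and NEBNext Ultra II for library preparation. Not given in the sources used here are the aligner, counter, build and strand setting. Coordinates are the table's own, and 37 of the 44 chain genes share a boundary with GENCODE 29 on GRCh38.

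Groups came from sample titles. Counts were filtered (filterByExpr, 0.604 CPM in 3 libraries), scaled by TMM and fitted in edgeR 4.0.16 (R 4.3.3) without covariates. Adjusted p-values are Benjamini-Hochberg values over all 12292 tested genes, called below 0.05. Each SE is the log2 fold change divided by the root of its F value. The test was tried on simulated data in which 199 of the tested genes were changed, far fewer than were called here. It recovered 18.4% of 1.5-fold, 70% of 2-fold and 98% of 4-fold changes, and 5.3% of its calls were false. A smaller change can therefore go uncalled. The table has 629 genes without a symbol.

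The members, classes, pathway and marker lists were chosen with earlier results of these data known. Called chains are given with their values. From each pathway list the 4 called genes of smallest adjusted p are named, with the 2 uncalled genes of highest mean where fewer than 2 were called. The alternatives used DESeq2 1.42.0, limma 3.58.1 (voom, and log2(FPKM + 1)) and a length trend from mgcv 1.9.3. Protein sequences were not used here.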

Additional observations from a re-analysis of the deposited data

How the results depend on the processing

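The counts of 5 higher and 13 lower chains moved by less than 1.5 times in each alternative, except that 5 chains were called lower when at least 2-fold was asked for. Under that rule 2 fibrillar and 0 transmembrane chains were called lower, and calls over all genes went from 6372 to 1917, or to 4166 with an adjusted p below 0.01. FACIT chains called higher were 1 to 2 over the fits that each left out 1 library and 2 with neither control replicate 1 nor knockdown replicate 2, a setting chosen after seeing the data. The median log2 fold change of -0.61 was -0.53 with library size alone, -0.058 with no filter and -0.056 by DESeq2, where more chains of low count enter. It was -0.20 on log2(FPKM + 1), which understates low genes, and -0.72 to -0.42 with 1 library left out. COL11A2, not called in any setting, changed sign with library size alone (0.028) and on log2(FPKM + 1) (0.0042), and ran from -0.205 to 0.035 with 1 library left out. Higher folding genes (6) were 3 to 5, higher receptors (3) 1 to 3 and lower fibril-associated genes (0) 0 to 1 with 1 library left out, and higher fibril-associated genes were 2 without both libraries that stood apart. Without mitochondrially encoded genes in the total, the collagen share of counts was 0.105% and 0.124%. The labels do not say if the replicate numbers pair the samples. Deviations of same-numbered libraries from their group means correlated at -0.305, -0.282 and 0.303. Control replicate 1 correlated best with knockdown replicate 2 (0.446). Both of these stood apart in their groups and weigh on every such value, so the correlations cannot decide whether same-numbered samples were handled together. With the replicate number as a block, 5 chains were still called higher and 13 lower, the 18 of the fit without it, and calls over all genes went to 5444. The block with a gene length correction gave a median of -0.67. Low counts limit 20 of the 44 chains.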
